A study of Homo sapiens with 6 samples.

Results

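The 10 genes described here encode the enzymes that place the methyl mark m6A on mRNA and take it off. They were listed by name, with no measured value in the rule, although earlier results of these data were known when the list was made. They are METTL3 and METTL14, the core of the m6A methyltransferase, its associated subunits WTAP, VIRMA, RBM15, RBM15B, ZC3H13 and CBLL1, and the demethylases FTO and ALKBH5. All 10 were found by Ensembl identifier among the 27394 genes of the deposited RNA-seq table, and all 10 were among the 22189 genes that averaged at least 1 across the 6 libraries and were tested. The libraries came from PANC-1, a single established human pancreatic cancer cell line, infected either with a control shRNA (shControl, 3 libraries) or with an shRNA that silences ZDHHC20 (shZDHHC20, 3 libraries), a gene for an enzyme that attaches palmitate to proteins. By the sample titles all cells carried an shRNA, although the columns of the deposited table are named siZDHHC20 and NC. The labels name neither the hairpin used nor the time after infection, and do not say whether the 3 libraries of a group came from separate cultures, so the p-values below measure the spread between these libraries only. The study followed the m6A reader YTHDF3 and the mRNA of MYC after silencing of ZDHHC20, and the comparison here asks whether the transcripts of the enzymes upstream of that reader differed between the same groups.

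N6-methyladenosine is written on nascent transcripts in the nucleus by a large complex. METTL3 carries the catalytic site, METTL14 holds the RNA substrate, WTAP anchors the pair in nuclear speckles, and the other subunits steer the complex to its transcripts. FTO and ALKBH5 oxidize the methyl group away, and reader proteins such as the YTH family bind the mark and set the translation, stability or location of the message.

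To show the regulatory sequence in front of these genes, 10 promoters of 9 of the 10 genes were taken from RefSeq on build GRCh38.p14. WTAP had 2 of them. VIRMA was left out of the promoter set, so the motif counts below do not cover that gene. The 250 bases upstream of each start were searched on both strands. The E-box CACGTG, a palindrome bound by basic helix-loop-helix factors that include MYC with its partner MAX, was present in the promoters of RBM15 and RBM15B, 2 of 10, against 6.34% of all 35116 promoters. These paralogues are shown because RBM15 was the member that passed the test, and their E-boxes are in capitals, on the strand of the gene and 5′ to 3′.

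RBM15: aacactttgggtCACGTGaccgcagagtgc
RBM15B: ccgccgcagagtCACGTGgcaggacggcgc

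The RBM15 window is chr1:110339184-110339213 on the plus strand, with the motif beginning 181 bases before the RefSeq start, and GENCODE 29 places it in a noncoding part of an RBM15 exon since the annotated gene starts further upstream. The RBM15B window is chr3:51391193-51391222 on the plus strand, 80 bases before the start and outside the annotated gene. The ETS core CCGGAAG, which is CTTCCGG on the other strand, was in the promoters of METTL3, METTL14, ZC3H13 and CBLL1, 4 of 10, against 8.52% of all promoters. It is the most widely shared of the rarer motifs among these genes and is shown in capitals.

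METTL3: gcctcactgtgtCCGGAAGcatgagagagc
METTL14: aaggaggcgggaCTTCCGGgccaagcgagc
ZC3H13: ctaatctgacggCCGGAAGctgcctgggtc
CBLL1: gcctcccggcctCCGGAAGgcagtgcgcac

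These windows are chr14:21511453-21511482 on the minus strand for METTL3, chr4:118685344-118685373 on the plus strand for METTL14, chr13:46052763-46052792 on the minus strand for ZC3H13 and chr7:107744073-107744102 on the plus strand for CBLL1. The motif begins 130, 36, 34 and 57 bases before the start, in that order. Set against each gene's own GENCODE 29 model, the METTL3 and ZC3H13 windows lie outside the gene and that of METTL14 crosses its start. The CBLL1 window lies in a noncoding part of an exon. Other genes were not looked up for the windows. Of the 250 promoter bases, 35 for METTL3, 223 for METTL14, 173 for ZC3H13 and 250 for CBLL1 lie in exons of any annotated gene. The GC box GGGCGG was in 6 of the 10 promoters against 42.6% of all, the CCAAT box in 5 against 32% of all, and the STAT motif TTCNNNGAA in that of METTL3 alone against 6.57% of all. Matches of different motifs can share bases, as TTCNNNGAA and the ETS core can, and a match is a description of the sequence and not of binding.

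The targeted gene checks the labels. The normalized counts of ZDHHC20 were 2001, 2033 and 1940.4 in shControl replicates 1 to 3 and 872, 779 and 893 in shZDHHC20 replicates 1 to 3, which did not overlap, with a log2 fold change of -1.23 (SE 0.0649, adjusted p = 4.36e-07 from limma). A normalized count is the deposited value, which behaved as a gene's read count divided by 1 factor for its library, without division by gene length. If the smallest value above 0 is 1 read, the libraries held between 16575500 and 18441000 counted reads. Of the genes the study turned on, YTHDF3 had a log2 fold change of 0.03 (adjusted p = 0.814) and MYC fell (log2 fold change -0.59, adjusted p = 2.79e-05). The 4 keratins listed as epithelial markers, which PANC-1 should express, summed to 80541 to 82577 in shControl and 74803 to 76193 in shZDHHC20. KRT8, at 55249 to 56688 and 50364 to 53579, and KRT18, at 19439 to 19943 and 16129 to 18505, were lower in shZDHHC20. KRT19 was higher there, at 6250 to 6364 against 5771 to 6044 in shControl. KRT7 was low, at 72.1 to 105.1 in shControl and 63.6 to 122.1 in shZDHHC20. Of the other markers, PRSS1 for acinar cells, PTPRC and CD68 for leukocytes, VWF for endothelium and LUM for fibroblasts were in the table, each at or under 8.45. COL1A1, listed for fibroblasts, was at 3882 to 3958 in shControl and 3113 to 3376 in shZDHHC20. The remaining 8 markers, INS and PECAM1 among them, were looked up by gene name and not found in the table.

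One library stood apart from the rest. Over the 4136 genes averaging at least 1000, the SD of the log2 difference was 0.0722 between shZDHHC20 replicates 1 and 3 and 0.0674 to 0.0718 between shControl libraries, but 0.178 and 0.198 between shZDHHC20 replicate 2 and its partners. Mitochondrial transcripts made up 4.01% of its values and 5.28% to 5.52% of those of the other 5 libraries. The fold change of each member is therefore given with and without shZDHHC20 replicate 2.

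Of the writers and erasers RBM15 fell in the shZDHHC20 group. It was the only 1 of the 10 members with an adjusted p under 0.05, against 11.5% of all genes tested and 21.7% of the 10908 genes averaging at least 100, a level that all 10 members exceeded. In the lower direction alone, 6.84% of all genes tested passed. The median absolute log2 fold change was 0.07 over the members, 0.14 over the genes averaging at least 100 and 0.25 over all genes tested. The log2 fold change was positive in 7 members and negative in 3, with a median of 0.03 beside 0.01 for all genes. Bulk RNA cannot tell fewer cells that express a gene from less of its RNA per cell.

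**Figure D1:**
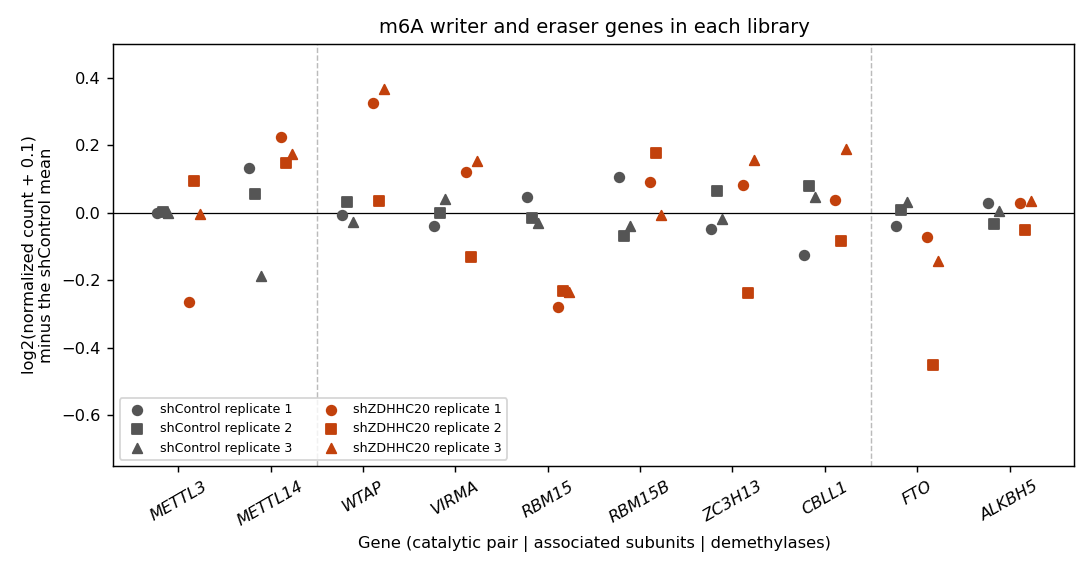
Log2(normalized count + 0.1) of each m6A writer and eraser gene minus its mean in shControl, 1 point per library, with shControl in grey, shZDHHC20 in orange and the marker shape giving the replicate. The 3 shZDHHC20 points of RBM15 lie together below the control points, while for WTAP, VIRMA, ZC3H13 and FTO shZDHHC20 replicate 2, an orange square, lies under its partners.

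The catalytic pair was first examined. METTL3, the methyltransferase subunit that binds S-adenosylmethionine, lies on chromosome 14 (21498133-21511375, minus strand, GRCh38) and had normalized counts of 572, 573 and 572 in shControl and 477, 610.4 and 571 in shZDHHC20. The control libraries were nearly equal, and the shZDHHC20 libraries lay on both sides of them, replicate 1 below and replicate 2 above. Its log2 fold change was -0.06 (95% interval -0.25 to 0.14, adjusted p = 0.757), and the same interval in percent ran from -16.1% to 9.92%. Without shZDHHC20 replicate 2 its log2 fold change was -0.13 (adjusted p = 0.289), and without replicate 1 it was 0.04 (adjusted p = 0.805).

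METTL14, which has no active catalytic site of its own and forms the RNA-binding groove with METTL3, lies on chromosome 4 (118685368-118715433, plus strand). Its normalized counts were 465, 441 and 372 in shControl and 496, 469.6 and 478 in shZDHHC20. All 3 shZDHHC20 libraries were above all 3 controls, but shControl replicate 3 was far below its partners and replicate 1 was close under the lowest shZDHHC20 library. The log2 fold change of 0.18 (95% interval -0.02 to 0.38, adjusted p = 0.253) did not pass the test. It was 0.20 without shZDHHC20 replicate 2 (adjusted p = 0.163), 0.09 without shControl replicate 3 (adjusted p = 0.652) and 0.25 without shControl replicate 1 (adjusted p = 0.203).

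Among the associated subunits, RBM15 carries RNA-recognition motifs and brings the complex to uridine-rich stretches of its targets. It lies on chromosome 1 (110338506-110346681, plus strand) and had normalized counts of 569.9, 546 and 541 in shControl, against 455, 471 and 469.6 in shZDHHC20. The groups did not overlap, and the shZDHHC20 libraries, replicate 2 included, were within a narrow band. Expression fell by 15.8% when the log2 fold change was turned into percent (95% interval -24.5% to -6.16%), and the means went from 552 ± 15.5 (SD, n = 3) to 465 ± 8.87 (SD, n = 3), with a log2 fold change of -0.25 (SE 0.0725, adjusted p = 0.0425).

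The call on RBM15 was close to the threshold. Without shZDHHC20 replicate 2 the log2 fold change was -0.26 (adjusted p = 0.0150), whereas without any 1 of the other 5 libraries it was -0.26 to -0.23 with an adjusted p of 0.0850 to 0.176. In all 15 alternatives the log2 fold change stayed between -0.26 and -0.22, and 6 of them kept the call. The antisense gene RBM15-AS1 shares 175 exonic bases, 3.75% of those of RBM15, and its mean normalized count was 6.36 in shControl and 12.1 in shZDHHC20. The kit kept strand, but whether the counting used it is not stated, so reads from that stretch cannot be assigned with certainty. The difference in the antisense gene did not pass the test (adjusted p = 0.468).

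RBM15B, the paralogue that acts beside RBM15 and also carries RNA-recognition motifs, lies on chromosome 3 (51391268-51397908, plus strand). The libraries held 1899, 1681 and 1718 normalized counts of it in shControl and 1877, 1994 and 1757 in shZDHHC20. The groups overlapped, with shControl replicate 1 above shZDHHC20 replicates 1 and 3. A log2 fold change of 0.09 was fitted (95% interval -0.05 to 0.23, adjusted p = 0.466). This value was 0.04 without shZDHHC20 replicate 2 (adjusted p = 0.666), 0.05 without shControl replicate 2 (adjusted p = 0.765), and 0.14 without shControl replicate 1 (adjusted p = 0.325). DCAF1 on the opposite strand shares 1325 exonic bases, 20% of those of RBM15B, and had a log2 fold change of -0.14 (adjusted p = 0.166).

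WTAP, the adaptor that keeps the catalytic pair in nuclear speckles, lies on chromosome 6 (159725585-159756319, plus strand). Its normalized counts were 1451, 1490.5 and 1431 in shControl and 1825, 1494 and 1879 in shZDHHC20. The controls were close together, shZDHHC20 replicates 1 and 3 were well above them, and replicate 2 was just above the highest control. With all libraries the log2 fold change was 0.24 (SE 0.0780, 95% interval 0.07 to 0.41), with an adjusted p of 0.0643. Without shZDHHC20 replicate 2 it was 0.35 (SE 0.0435, adjusted p = 5.85e-05). The call turned on the processing as well, since with all 6 libraries WTAP passed with a pseudocount of 1 (adjusted p = 0.0450), with only genes averaging at least 10 (0.0443), with quantile normalization (0.0463) and with a correction for GC content, alone (0.0185) or with a replicate block (0.0264). SOD2, on the opposite strand, shares 298 exonic bases with WTAP, 4.64% of its total, and had a log2 fold change of -0.05 (adjusted p = 0.658). A second annotated SOD2 entry shares 139. Opposite-strand genes also share exonic bases with ALKBH5 (11.2% of its exonic bases), METTL3 (6.58%), CBLL1 (6.08%) and FTO (0.842%). The annotation also holds pseudogenes of WTAP and of FTO, WTAPP1 and FTOP1, with which reads could be shared.

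VIRMA, the large scaffold on which the associated subunits assemble and which favours methylation near stop codons, lies on chromosome 8 (94487693-94553529, minus strand). In shControl its normalized counts were 1584, 1628 and 1674, and in shZDHHC20 they were 1772, 1488 and 1810.2. Replicates 1 and 3 of shZDHHC20 were above every control and replicate 2 was below every control. With all libraries the log2 fold change was 0.05 (adjusted p = 0.750), and it was 0.14 without shZDHHC20 replicate 2 (SE 0.0433, adjusted p = 0.0379).

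ZC3H13, a zinc finger protein that bridges RBM15 to WTAP and holds the complex in the nucleus, lies on chromosome 13 (45954465-46052759, minus strand). Its normalized counts were 1563, 1690.3 and 1597 in shControl and 1711, 1372 and 1802 in shZDHHC20, the pattern of VIRMA again, with replicate 2 under every control and its partners above. The log2 fold change was 0.00 with all libraries (95% interval -0.18 to 0.19, adjusted p = 0.997) and 0.12 without shZDHHC20 replicate 2 (adjusted p = 0.101).

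CBLL1, also called HAKAI, a RING-type ubiquitin ligase that is part of the complex, lies on chromosome 7 (107743697-107761667, plus strand). Normalized counts were 594, 685 and 669.8 in shControl and 666, 612 and 739 in shZDHHC20. The groups overlapped, with the lowest value in shControl replicate 1 and the highest in shZDHHC20 replicate 3. Its log2 fold change was 0.05 (95% interval -0.14 to 0.23, adjusted p = 0.791), and it was 0.11 without shZDHHC20 replicate 2 (adjusted p = 0.359).

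The demethylases differed from each other in their spread. FTO, which removes the methyl group from m6A and from the related mark beside the mRNA cap, lies on chromosome 16 (53701692-54158512, plus strand) and had normalized counts of 807, 834 and 847 in shControl and 789, 607 and 752 in shZDHHC20. Every shZDHHC20 library was below every control, replicate 1 narrowly and replicate 2 by the most. The log2 fold change was -0.22 (SE 0.0901, 95% interval -0.42 to -0.03) with an adjusted p of 0.147, and without shZDHHC20 replicate 2 it was -0.11 (adjusted p = 0.239).

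ALKBH5, a nuclear demethylase of m6A, lies on chromosome 17 (18183078-18209954, plus strand). Its normalized counts were 2328, 2228 and 2289.8 in shControl and 2328, 2204 and 2337 in shZDHHC20. The ranges nearly coincided, with replicate 2 the lowest in both groups. The log2 fold change was 0.00 (95% interval -0.11 to 0.12, adjusted p = 0.973), and this interval, from -7.13% to 8.36% in percent, was the narrowest among the 10 members. The log2 fold change was 0.03 without shZDHHC20 replicate 2 (adjusted p = 0.641).

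Over the 10 members, the groups did not overlap in 4, METTL14, WTAP, RBM15 and FTO, with 2 of them higher and 2 lower in shZDHHC20. Groups that did not overlap were found in 28.6% of all genes tested and in 42.6% of the genes averaging at least 100. For each of these 4 the two-sided exact permutation test gave p = 0.1, the smallest that 3 libraries against 3 allow. WTAP, RBM15 and FTO had an unadjusted limma p under 0.05, at 0.00814, 0.00448 and 0.0286.

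The deviation of shZDHHC20 replicate 2 was next set beside base composition. On the log2 scale this library differed from the mean of its partners by -0.36 for ZC3H13, -0.34 for FTO, -0.31 for WTAP, -0.27 for VIRMA and -0.20 for CBLL1. The GC content of their annotated transcripts was 42%, 46.8%, 43.1%, 41.8% and 42.3%. At the other end METTL3 deviated by 0.23 and RBM15B by 0.13, with GC contents of 50% and 55.9%, and RBM15, at 54.1%, by 0.03. METTL14 and ALKBH5, at 40.9% and 52.7%, deviated by -0.05 and -0.08.

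Across all 4136 genes averaging at least 1000, this deviation had a Pearson's r of 0.605 with GC content, given as a description because genes of 1 library share that library and are not independent replicates. The same measure for shControl replicate 2 had an r of -0.379. The median deviation of shZDHHC20 replicate 2 rose from -0.18 in the 680 genes with at most 42% GC to 0.10 in the 1394 genes above 54%. ZC3H13, FTO, WTAP, VIRMA, CBLL1, ALKBH5 and RBM15 lay below the medians of their bins, and METTL3, METTL14 and RBM15B above. After a correction for GC content, chosen after the data were seen, RBM15 (log2 fold change -0.23, adjusted p = 0.0290), WTAP (0.21, adjusted p = 0.0185) and FTO (-0.25, adjusted p = 0.0361) passed the test.

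**Figure D2:**
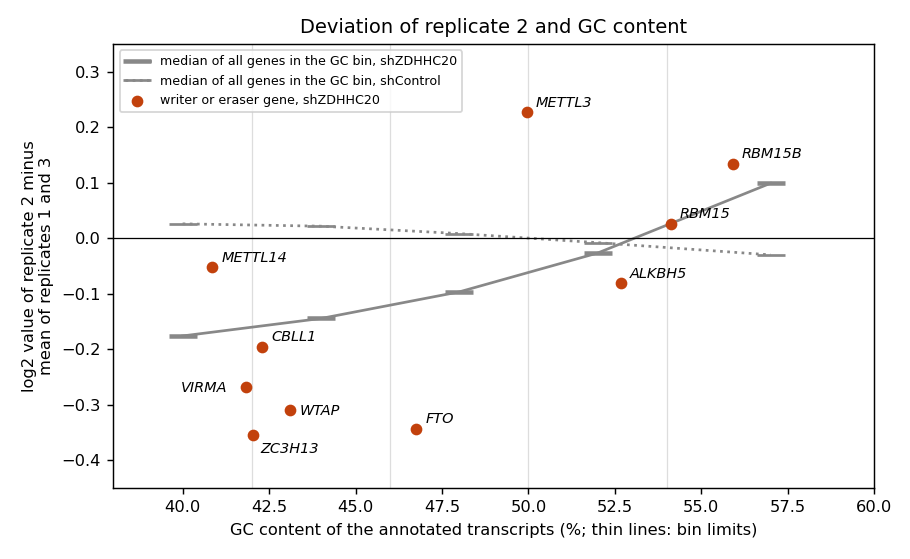
Log2 value of replicate 2 minus the mean of replicates 1 and 3 against the GC content of the annotated transcripts in percent. Orange points are the 10 genes in shZDHHC20, and grey bars, drawn inside each GC bin, are medians of all genes averaging at least 1000 in shZDHHC20 (solid) and shControl (dotted). FTO, ZC3H13, WTAP and VIRMA lie well under the solid bars of their bins, and METTL3 lies above.

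How far the calls rest on that library is seen by setting 3 fits side by side. With all 6 libraries 1 member passed, without shZDHHC20 replicate 2 there were 3 (WTAP, VIRMA and RBM15), and after the GC correction there were 3 (WTAP, RBM15 and FTO). Over all genes, 2541, 4454 and 3294 passed in these fits, which is 11.5%, 20.01% and 14.8% of the genes tested. Among genes averaging at least 100, a level that every member exceeded, 21.7% passed with all 6 libraries. That share was not computed for the fits with 3 members past the threshold, so their counts are not read as an excess. RBM15 passed in each of the 3 fits, and its log2 fold change was between -0.26 and -0.23. Over all 15 alternatives, however, 6 kept the call on RBM15 and 9 lost it.

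**Figure D3:**
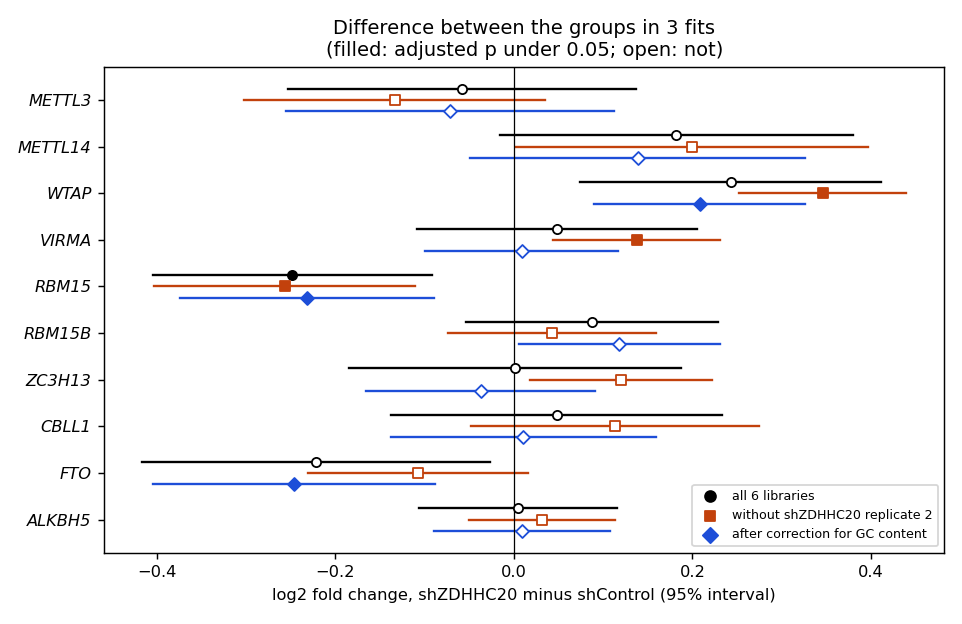
Log2 fold change, shZDHHC20 minus shControl, of each gene with its 95% interval in 3 fits: all 6 libraries (circles), without shZDHHC20 replicate 2 (squares) and after correction for GC content (diamonds). Filled markers have an adjusted p under 0.05 in limma, which RBM15 has in each fit, WTAP in both alternatives, and VIRMA and FTO in 1 each.

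Levels were compared between genes only per kilobase of annotated exon, which GENCODE 29 gives. In shControl ALKBH5 was the highest at 715 ± 15.9 normalized counts per kilobase (SD, n = 3), followed by RBM15B at 266 ± 17.5, WTAP at 227 ± 4.73, ZC3H13 at 158 ± 6.42 and VIRMA at 151 ± 4.16. Then came CBLL1 at 119 ± 8.88, RBM15 at 118 ± 3.32, METTL3 at 97.1 ± 0.165, METTL14 at 62.1 ± 6.99 and FTO at 38.8 ± 0.944. The library ranges of ZC3H13 and VIRMA overlapped, as did those of CBLL1 and RBM15, and other neighbours in this order were apart. The order of the means was the same in shZDHHC20, where RBM15 stood at 99.6 ± 1.90 and CBLL1 at 123 ± 11.6, no longer overlapping, while RBM15 and METTL3 (93.8 ± 11.6) now did, as did RBM15B (282 ± 17.8) and WTAP (269.97 ± 32.5).

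The order depended on the length used. Per kilobase of the median protein-coding transcript of each gene, which counts short annotated transcripts too, ALKBH5 (1048 ± 23.3) and WTAP (898 ± 18.7) led in shControl and RBM15 was last at 164 ± 4.60. METTL14 and FTO, at the bottom of the first order, then stood at ranks 3 and 5 with 459.6 ± 51.7 and 448 ± 10.9, because their medians of 0.927 and 1.85 kb are far below their exon totals of 6.86 and 21.4 kb. The library ranges of METTL14, ZC3H13, FTO and METTL3, at ranks 3 to 6, overlapped, so their order is not beyond the spread. In shZDHHC20 WTAP and ALKBH5 overlapped at the top, at 1068 ± 129 and 1052 ± 34.0. That the demethylase ALKBH5 was above its counterpart FTO held under both lengths.

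**Figure D4:**
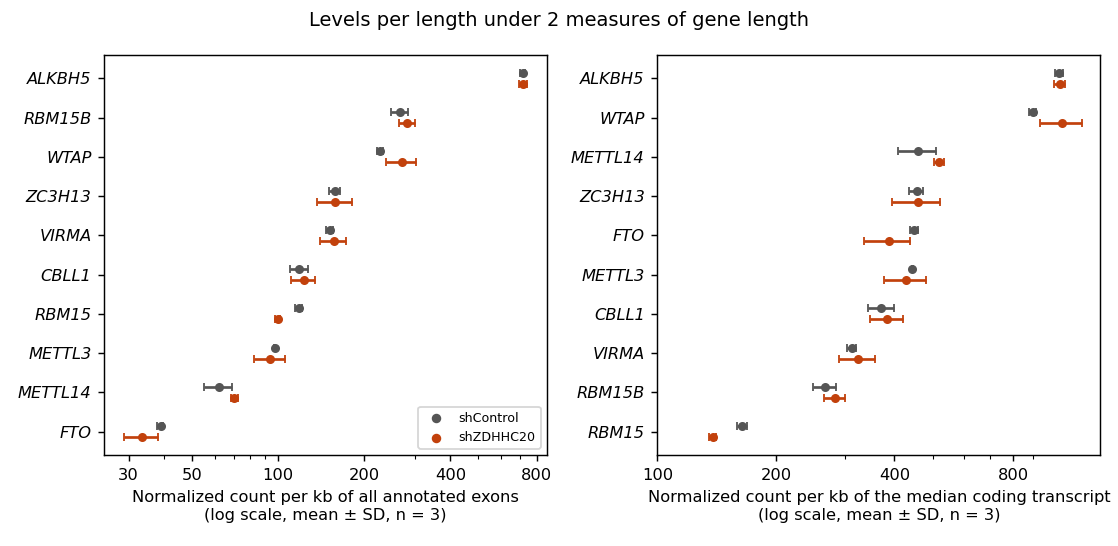
Normalized counts per kilobase on a log scale, mean ± SD of 3 libraries, in shControl (grey) and shZDHHC20 (orange), per kilobase of all annotated exons on the left and of the median coding transcript on the right. ALKBH5 is the highest in shControl on both sides, while METTL14 and FTO move up from the bottom on the left.

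Ratios between partner genes within a library do not depend on that library's scaling. The log2 ratio of RBM15 to RBM15B was -1.74, -1.62 and -1.67 in shControl and -2.05, -2.08 and -1.90 in shZDHHC20. All shZDHHC20 libraries were below all controls, and the means differed by -0.34, from -1.68 ± 0.06 to -2.01 ± 0.09 (SD, n = 3). The log2 ratio of FTO to ALKBH5 was -1.53, -1.42 and -1.43 in shControl and -1.56, -1.86 and -1.64 in shZDHHC20. These did not overlap either, though shZDHHC20 replicate 1 was near the lowest control, and the means differed by -0.23. The lowest ratio was that of shZDHHC20 replicate 2, which deviated from its partners by -0.34 for FTO and -0.08 for ALKBH5. A ratio keeps such a difference between genes, so the -0.23 rests in part on that library.

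The ratio of METTL3 to METTL14, the partners of the catalytic pair, was spread more widely. On the log2 scale it was 0.30, 0.38 and 0.62 in shControl and -0.06, 0.38 and 0.25 in shZDHHC20, with overlap between the groups. The log2 ratio of WTAP to METTL3 was 1.34, 1.38 and 1.32 in shControl and 1.94, 1.29 and 1.72 in shZDHHC20, so replicate 2 was below the controls and its partners above. These ratios are descriptions of counts per gene and carry no test. How often ratios of other gene pairs do not overlap was not computed. For single genes averaging at least 100, the groups did not overlap in 42.6%.

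**Figure D5:**
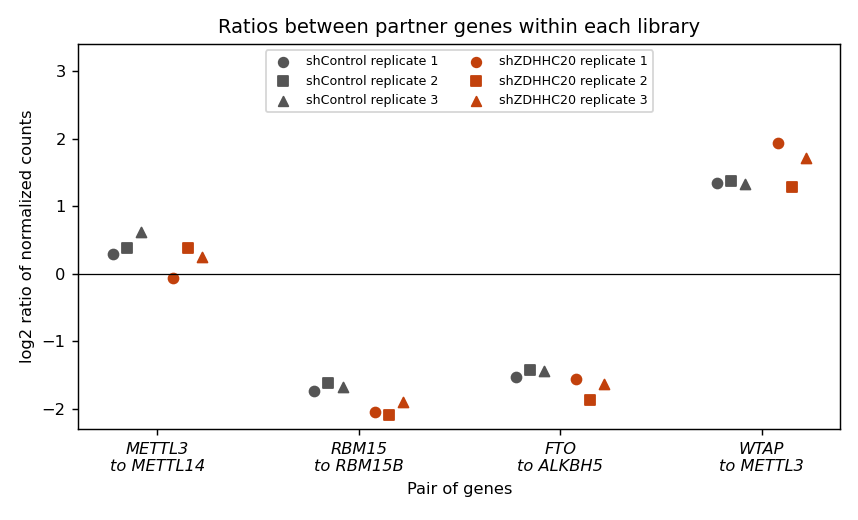
Log2 ratio of normalized counts between partner genes in each library, with shControl in grey, shZDHHC20 in orange and the marker shape giving the replicate. The groups are apart for RBM15 to RBM15B and for FTO to ALKBH5 and overlap for the other 2 pairs.

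The rest of the pathway was described with 5 further lists, with 41 genes reported and all of these tested, of which 6 passed, 1 higher and 5 lower. That is 14.6%, against 11.5% of all genes tested and 21.7% of those averaging at least 100. Without shZDHHC20 replicate 2 it was 13 genes or 31.7%, against 20.01% of all genes in that fit. The share among genes averaging at least 100 was not computed for that fit. The counts without shZDHHC20 replicate 2, here and in the lists below, are therefore not read as an excess. Among the 6 other RNA adenine methyltransferase genes 1 passed. PCIF1, which methylates the adenosine beside the mRNA cap, fell from 699 ± 8.26 to 546 ± 44.7 (SD, n = 3; log2 fold change -0.36, adjusted p = 0.00848). The most abundant of that list were TRMT112, an activating partner of several methyltransferases (-0.20, adjusted p = 0.210), and METTL16, which methylates U6 snRNA and MAT2A mRNA (0.18, adjusted p = 0.0655). Without shZDHHC20 replicate 2, where 20.01% of all genes passed, 4 of the 6 did, 2 in each direction.

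Of the 7 genes reported of the S-adenosylmethionine cycle, which supplies the methyl donor, 2 passed. The list is not complete, so its count and median describe these 7 genes and not the cycle. MTR, the methionine synthase, fell from 1335 ± 105 to 1079 ± 49.4 (log2 fold change -0.30, adjusted p = 0.0116), and MTRR, its reductase, fell from 1052 ± 60.6 to 855 ± 99.3 (-0.30, adjusted p = 0.0344). The abundant genes of this list were MAT2A, which makes S-adenosylmethionine and had a log2 fold change of -0.02 (adjusted p = 0.772), and AHCY, which clears its by-product (-0.03, adjusted p = 0.788). MTR and MTRR also passed without shZDHHC20 replicate 2.

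Among the 7 other AlkB family genes 2 passed. ALKBH2, which repairs alkylated DNA, fell from 307 ± 11.1 to 235 ± 35.4 (log2 fold change -0.39, adjusted p = 0.0392). ALKBH8, which modifies the wobble base of tRNAs, fell from 470.1 ± 6.14 to 381 ± 29.7 (-0.31, adjusted p = 0.0299). ALKBH7, a mitochondrial member and the most abundant, had a log2 fold change of -0.11 (adjusted p = 0.629). Without shZDHHC20 replicate 2, 4 of the 7 passed, 1 higher and 3 lower, again beside 20.01% of all genes.

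Of the 16 m6A reader genes 1 passed, the RNA helicase YTHDC2, which rose from 1069 ± 19.0 to 1275 ± 67.3 (log2 fold change 0.25, adjusted p = 0.0170). The abundant readers HNRNPA2B1 (-0.05, adjusted p = 0.486) and HNRNPC (0.04, adjusted p = 0.642), which bind nuclear transcripts, did not pass. With shZDHHC20 replicate 2 left out, 3 readers passed, beside 20.01% of all genes: YTHDC2 (0.29, adjusted p = 0.000607) and FXR1 (0.12, adjusted p = 0.0259) higher, and PRRC2A (-0.15, adjusted p = 0.000667) lower, the last pair named after their values were seen. None of the 5 genes of the exon junction complex, which limits where m6A is placed, passed at an adjusted p under 0.05, and 1 of them, the RNA helicase EIF4A3, had an unadjusted limma p under 0.05 at 0.0238. CASC3, the most abundant of the 5, had a log2 fold change of -0.04 (adjusted p = 0.717). The median log2 fold change was -0.26, -0.02, -0.11, -0.01 and 0.02 over these lists in the order given, beside 0.01 over all genes tested. Each of the 6 calls was lost in some of the 15 alternatives: PCIF1 and MTR kept theirs in 12, MTRR in 10, YTHDC2 in 9 and both AlkB genes in 8.

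The genes whose log2 values over the 6 libraries were most like those of RBM15 were sought among the 4136 genes averaging at least 1000. These were ID1, an inhibitor of helix-loop-helix factors (Pearson's r = 0.9996), YEATS2, a chromatin reader (0.997), and MAP2K1, a kinase of the ERK pathway (0.995). With 6 points that fall into the 2 groups such values are common, and 242 genes had an r over 0.95. Their log2 fold changes were -0.16, -0.16 and -0.23.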

How the data were processed

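RNA-seq libraries of PANC-1 cells, 3 shControl and 3 shZDHHC20, were compared. The authors deposited a normalized signal for each gene in each library. The file's name says FPKM, but 100% of values were whole multiples of the library's smallest value (tolerance 0.1), so they were treated as read counts divided by 1 size factor and not as FPKM. Its columns are named siZDHHC20 and NC and were matched to the sample titles by group and replicate number. The submitters' processing notes name the build hg19, and the aligner, counter and annotation are not given in the sources used here. Gene names matched 27175 of 27394 identifiers. Positions, lengths and GC content came from GENCODE 29 on GRCh38 by identifier and not from the files' build. Promoters came from RefSeq.

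A pseudocount of 0.1 was added before log2, which understates changes of genes with low values, and genes averaging at least 1 were kept. The test, planned for FPKM, was applied to these values as planned. It was fitted with limma 3.58.1 (lmFit, and eBayes with a mean-variance trend) in R 4.3.3 with data.table, version 1.17.8. P-values were two-sided and Benjamini-Hochberg adjusted over all 22189 genes. Figures were drawn with Python 3.11.15 and matplotlib 3.10.9. The scripts were tested on simulated data. Depth is known only if the smallest value is 1 read, so no counting intervals are given.

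The members and lists were chosen with earlier results of these data known. A result for 1 gene of the S-adenosylmethionine list is not reported here, and the list's counts and median leave it out. All members, list genes past the threshold and the 2 most abundant genes of each list are named, with ZDHHC20, YTHDF3 and MYC and the 3 genes most like the member with the smallest adjusted p. Same-numbered libraries did not deviate together (r of -0.19, -0.27 and -0.08 over genes averaging at least 1000), and the main fit did not treat the numbers as pairs. Differently numbered libraries reached an r of 0.26, so these values do not settle whether the numbers mark pairs or a shared batch. Alternatives were a pseudocount of 1, no filter or an average of at least 10, quantile normalization, median-ratio scaling, eBayes without the trend, a replicate block and the removal of single libraries. A correction for GC content (a spline with 4 degrees of freedom, fitted on genes averaging at least 10), alone or with the block, was added after the data were seen.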

Additional observations from a re-analysis of the deposited data

How the results depend on the processing

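Of 150 values (10 members under 15 alternatives), 119 kept their direction and side of the threshold, 13 changed sign, 9 lost the call and 9 gained it. The 1 member past the threshold became 2 with a pseudocount of 1 or a mean of at least 10, 0 without the mean-variance trend, 0 with the replicate block, 3 with the GC correction and 2 with both the correction and the replicate block, and was 0 to 3 when a library was left out. The 9 lost calls were all of RBM15, whose adjusted p was 0.0962 with the replicate block, 0.0530 with the block and the GC correction, 0.0652 with quantile normalization and 0.119 without the trend. WTAP gained a call in 6 alternatives, FTO in 2 and VIRMA in 1. Over all genes, 351 passed without the trend and 1233 to 4454 when a library was left out, against 2541. The signs that changed were of members near 0. ZC3H13 was at -0.0373 with the GC correction, with or without the replicate block. With a library left out the log2 fold change ranged from -0.0769 to 0.120 for ZC3H13, -0.0224 to 0.113 for CBLL1, -0.0127 to 0.0317 for ALKBH5, -0.134 to 0.0443 for METTL3 and -0.00420 to 0.137 for VIRMA. The causes were not tested. With a standard error of 0.0516 to 0.0917 on the log2 scale, changes of a few percent were not detectable. Larger changes could also miss the threshold. With all 6 libraries WTAP at 18.3%, FTO at -14.2% and METTL14 at 13.4% did not pass, while RBM15 at -15.8% did.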
